A study of Mus musculus with 4 samples.

Results

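The mitochondrial respiratory chain is built largely from proteins encoded in the nucleus, and 83 of the 24418 genes listed in the data bore a name of such a subunit. They were chosen by name alone, as genes named Nduf (subunit series a, b, c, s and v), Sdh, Uqcr, Cox4 to Cox8 or Atp5. Of these, 35 belong to complex I, 4 to complex II, 8 to complex III, 19 to complex IV and 15 to complex V, with Ndufa4 counted in complex IV, where its protein is now placed. The other 2, Atp5s and Atp5sl, share the name without being counted here as subunits of the enzyme. The genes encoded in mitochondrial DNA were not analysed here.

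RNA was sequenced from regulatory T (Treg) cells, the Foxp3-expressing CD4+ T cells that restrain immune responses. All samples came from Foxp3 YFP-Cre mice, with spleens and lymph nodes as the source, in which a yellow fluorescent protein fused to Cre is driven from the Foxp3 locus, so that sorting for the fluorescence takes whichever cells use that promoter. The cells were held for 3 h with PBS or with 100 ng/mL of thymic stromal lymphopoietin (TSLP), an epithelial cytokine that signals through TSLPR and CD127, in 2 samples of each group. The labels do not say that the samples of a group came from separate mice or cultures, so p-values measure the spread between these samples alone, which may be technical. The libraries PBS 1, PBS 2, TSLP 1 and TSLP 2 held 11328132, 10724392, 11761234 and 10271571 reads on genes. Values are normalized counts, that is, reads scaled by the size factor of their library, and a gene was tested if it reached 10 normalized counts in at least 2 libraries, which 11392 genes and 75 of the 83 members did.

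One library stood apart from the rest. PBS 1 had reads on 11484 genes, against 12355 in PBS 2, 12244 in TSLP 1 and 11937 in TSLP 2, and it was high for genes with short transcripts, as described below. Subunit genes have short transcripts, with a median of 875 bases among the members tested and 2965 bases among all genes tested. Fold changes of TSLP against PBS are therefore given with and without PBS 1.

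The respiratory chain passes electrons from NADH, at complex I, and from succinate, at complex II, to ubiquinone, then through complex III and cytochrome c to oxygen at complex IV. Complexes I, III and IV pump protons out of the matrix, and complex V, the ATP synthase, lets them return and makes ATP. Treg cells are known to depend on this oxidative metabolism more than effector T cells do.

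The members, with Atp5s and Atp5sl included, took 0.715% of the reads of PBS 1 (95% Wilson interval 0.710 to 0.720). For PBS 2 the share was 0.485% (0.481 to 0.489). For TSLP 1 and TSLP 2 it was 0.491% (0.487 to 0.495) and 0.557% (0.552 to 0.561). These intervals cover counting error only. The share was highest in PBS 1, and it was closer between PBS 2 and TSLP 1, which had different treatments, than between the 2 libraries of either group. Complex V took the most in each library, 0.315%, 0.209%, 0.225% and 0.247% in PBS 1, PBS 2, TSLP 1 and TSLP 2. Atp5b and Atp5a1, the catalytic β and the α subunit of the ATP synthase head, together held 26.4% to 29.9% of all member reads. The PBS 1 library was highest for each of the 5 complexes, by the least for complex II, at 0.0392% against 0.0366% in TSLP 2, the next highest, 0.0362% in PBS 2 and 0.0290% in TSLP 1. In bulk RNA, fewer cells of a type and less RNA per cell cannot be told apart.

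**Figure D1:**
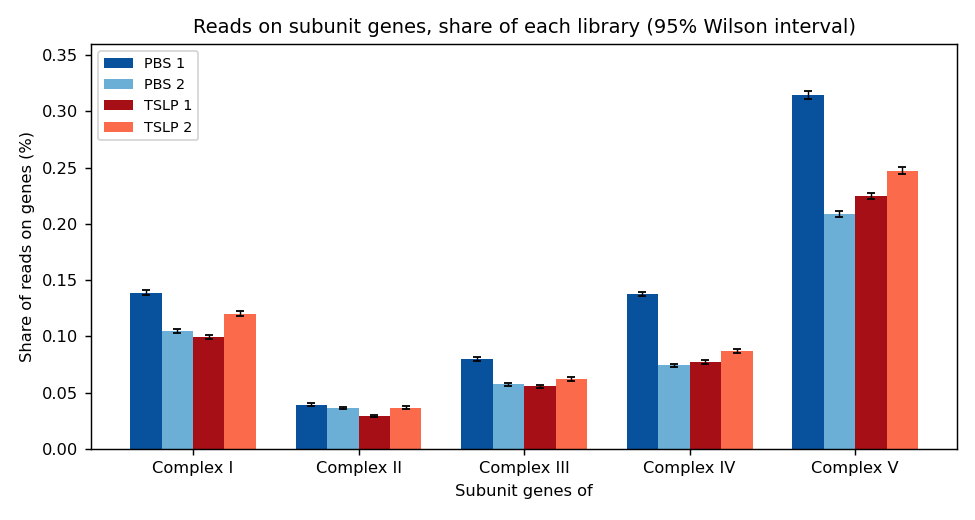
Share of each library's reads on genes (%, vertical axis) that fell on the subunit genes of complexes I to V (horizontal axis), 1 bar a library, with 95% Wilson intervals as error bars. PBS 1 is the highest bar for every complex, and complex V takes the most reads, from 0.209% in PBS 2 to 0.315% in PBS 1.

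Levels were compared between genes per kb of the principal transcript, as means over PBS 2, TSLP 1 and TSLP 2. Atp5b (chr10:128083273-128090391 of GRCm38, the mm10 build, + strand) was highest at 4696 normalized counts per kb, with values of 6357, 4377, 4859 and 4853 in PBS 1, PBS 2, TSLP 1 and TSLP 2. Cox4i1 (chr8:120668222-120674207, + strand), a regulatory subunit of complex IV, came next with 6242, 3262, 3600 and 3646 normalized counts per kb in the same order. Leaving PBS 1 aside, the values of these 2 genes did not overlap. Below them stood Atp5a1 at 2793 and Uqcrh, the hinge protein of complex III, at 2757, and the 3 libraries of these neighbours overlapped. The next were the ATP synthase genes Atp5g3, a gene of the membrane c-ring, at 2101, and Atp5e, the ε subunit, at 1940 normalized counts per kb.

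Among tested members, the median level was 308 normalized counts per kb for complex I (27.3 to 950), 587 for complex II (106 to 691), 626 for complex III (196 to 2757), 815 for complex IV (143 to 3503) and 771 for complex V (25.5 to 4696). Genes for subunits of the same enzyme thus differed widely in mRNA level. The highest in complex I was Ndufa6, an accessory subunit, at 950, and the lowest was Ndufb2 at 27.3. Levels per kb depend on the transcript taken for each gene. It was long for Ndufb2, at 4371 bases, and for Atp5g1, the lowest of complex V, at 4715 bases. By normalized count over the same libraries, Ndufb2 at 119 was above Ndufb4 at 41.5. The 4 complex II genes ran from Sdhb, the iron-sulfur subunit, at 691, through the succinate-binding flavoprotein Sdha at 661 and the membrane anchor Sdhd at 513, to the other anchor, Sdhc, at 106. In complex III, Uqcrq, a small subunit, was lowest at 196 per kb, with a transcript of 1521 bases. By normalized count over the same libraries, Uqcrq at 299 was above Uqcr11 at 124.

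**Figure D2:**
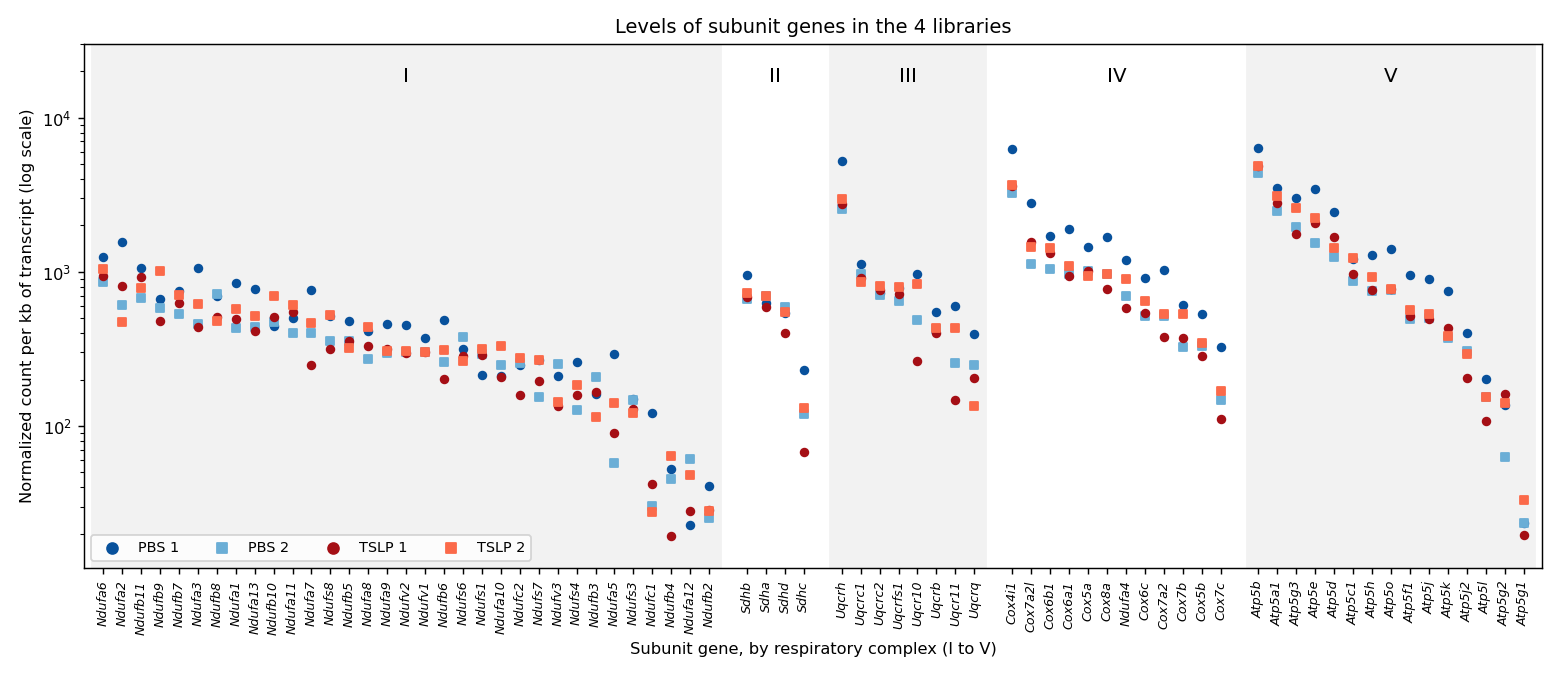
Normalized count per kb of transcript (vertical, log scale) of tested subunit genes in the 4 libraries, with genes ordered within complexes I to V by their mean level. Blue circles (PBS 1) lie above the other 3 points for all 12 genes of complex IV and for 12 of the 15 of complex V, and the highest level is that of Atp5b.

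Several subunits come as sets of related genes, of which some are known as forms of heart, muscle, lung or testis. Cox4i1 had 4927, 2494, 2923 and 2669 reads in PBS 1, PBS 2, TSLP 1 and TSLP 2, while Cox4i2, the form known from lung, had 0, 5, 2 and 13. Cox6a1 had 1118, 554, 573 and 599 reads, and its heart and muscle form Cox6a2 had no read. Cox8a had 956, 534, 453 and 513 reads, and neither Cox8b, of heart and muscle, nor Cox8c, of testis, had any. Cox4i1, Cox6a1 and Cox8a thus exceeded their relatives in every library. No reads in a library allow up to 3, which is 0.255 to 0.292 CPM (reads scaled to a common library total) here.

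In the other sets, too, the forms of muscle and testis were low. Cox7a2 had 697, 343, 265 and 337 reads and Cox7a2l, whose protein takes part in respiratory supercomplexes, had 3091, 1202, 1795 and 1483, so that both were abundant, against 10, 0, 10 and 11 for the muscle form Cox7a1. Cox7b had 631, 324, 395 and 511 reads against 0, 6, 0 and 0 for Cox7b2. For Cox6b1 there were 1087, 641, 869 and 845 reads, and for its testis relative Cox6b2 9, 28, 0 and 0. Cox6b2 was too low for the limma test. Set against 3 reads in each TSLP library, the observed PBS level of Cox6b2 was 6.16-fold higher. It was 2.93-fold higher without PBS 2, the library with most of the Cox6b2 reads, and 9.40-fold higher without PBS 1. These are not lower bounds, since the counting error of the PBS reads is left out.

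The c-ring of the ATP synthase is made of identical proteins from 3 genes that differ in their import sequences. Atp5g3 had 2237, 1410, 1355 and 1790 reads, Atp5g1 had 114, 111, 99 and 150, and Atp5g2 had 104, 46, 126 and 99. Atp5g3 was the highest in every library, also per kb. The value of Atp5g2 is uncertain, since 87.4% of the 50-base windows of its transcript, the length of a read, also occur in transcripts of other genes.

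Such shared windows touched other members as well: 29 of the 83 had at least 10% of their windows in common with another gene, and 12 at least 30%. Among these were Atp5l at 84.8%, Cox7c at 53.0% and Atp5o at 50.3%, and their counts are uncertain for the same reason. For Atp5o, the records that share windows include another of the same gene name. Ndufs5, a complex I subunit, had no read in any library, with 31.1% of its windows shared. The other 7 members that were not tested were the complex IV forms Cox4i2, Cox6a2, Cox6b2, Cox7a1, Cox7b2, Cox8b and Cox8c.

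The library PBS 1 was set against the mean of the other 3, as a log2 ratio of normalized count + 1, without a test, since it is 1 library and was singled out with its values known. The median log2 ratio over the 75 members was 0.55, a 1.47-fold higher level in PBS 1, against 0.01 over all genes tested. PBS 1 was the highest of the 4 libraries for 53 members (70.7%), against 32.4% of all genes tested, and the lowest for 3 members, against 34.0% of all genes. Of the other libraries, TSLP 2 was highest for 14 members, PBS 2 for 7 and TSLP 1 for 1. The level in PBS 1 was over 1.5 times that of the others for 33 members, against 18.8% of all genes, and over 2 times for 13, against 8.74%.

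The difference was not the same in each complex. The median log2 ratio of PBS 1 to the others was 0.79 in complex IV, with PBS 1 highest for 12 of 12 genes, and 0.66 in complex III, with 6 of 8. In complex V it was 0.60 with 12 of 15, in complex I 0.41 with 19 of 34, and in complex II 0.28 with 2 of 4. Differences between complexes were not tested.

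In complex I, PBS 1 stood furthest above the rest for Ndufc1, a small accessory subunit, with 156 reads in PBS 1 and 38, 56 and 33 in PBS 2, TSLP 1 and TSLP 2, which is 3.62-fold in normalized counts. It was furthest below them for Ndufa12, another accessory subunit, with 26 reads against 68, 33 and 51. Ndufa12 was one of the 3 members lowest in PBS 1, with Ndufs1, a core iron-sulfur subunit, and Ndufb10, an accessory subunit of the membrane arm.

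The complex II genes split. Sdhc had normalized counts of 731 in PBS 1 and 380, 216 and 416 in PBS 2, TSLP 1 and TSLP 2, a 2.25-fold higher level in PBS 1. Sdhb had 1095 against 757, 783 and 829, a 1.39-fold higher level. Sdha had 1812 against 2022, 1720 and 2008, and Sdhd had 666 against 725, 492 and 678. PBS 1 was thus highest for Sdhb and Sdhc and between the others for Sdha and Sdhd.

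In complex III the highest ratio was that of Uqcr11, a small subunit, with normalized counts of 268 in PBS 1 against 114, 65.9 and 191. Uqcrh had 2864 against 1406, 1495 and 1624. The lowest was that of the core subunit Uqcrc2, with 1375 against 1349, 1454 and 1525, so that for this gene PBS 1 lay below both TSLP libraries. In complex IV the ratio ran from 1.36-fold for Cox6b1, a subunit on the outer face of the enzyme, with 1054 against 641, 819 and 883, to 2.28-fold for Cox7c, with 174 against 80.0, 60.3 and 90.9. All 12 tested genes of complex IV lay above the other 3 libraries in PBS 1. In complex V it ran from 0.940-fold for Atp5g1 to 1.89-fold for Atp5k, the small membrane subunit e, with 279 against 139, 160 and 142.

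The ratio of PBS 1 to the other libraries varied with transcript length, among members and among all genes alike. For members under 750 bases the median log2 ratio was 0.69 (31 genes) and for all genes of that length 0.65 (388 genes). From 750 to 1500 bases the medians were 0.49 (25 members) and 0.44 (1456 genes), and from 1500 to 3000 bases 0.32 (16 members) and 0.16 (3897 genes). Above 3000 bases the 3 members Atp5g1, Ndufb2 and Sdhc had a median of 0.58, while all 5572 genes had −0.21. PBS 1 was the highest library for 77.4% of members under 750 bases against 55.7% of genes, for 68% against 55.6% from 750 to 1500 bases, and for 62.5% against 40.4% from 1500 to 3000 bases. The members' medians were thus close to those of all genes up to 1500 bases and above them from 1500 bases on, where members are few, and PBS 1 was highest for a larger share of members than of genes in each of these 3 bins. These differences were not tested.

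Spearman's rho between transcript length and the PBS 1 log2 ratio was −0.331 over 75 members and −0.385 over 11313 genes. These are correlations across genes, which share the same 4 libraries and are not independent replicates. With a smooth trend over transcript length taken out of each library, the members' median log2 ratio was 0.32, against 0.14 for all genes, and 57 of 75 members lay above 0, against 61.3% of all genes. By complex it was 0.15 for complex I, with 20 of 34 above 0, 0.13 for complex II (3 of 4), 0.36 for complex III (6 of 8), 0.46 for complex IV (12 of 12) and 0.33 for complex V (14 of 15). Complexes I and II were thus close to the median of all genes. This alternative was chosen after the data had been seen.

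**Figure D3:**
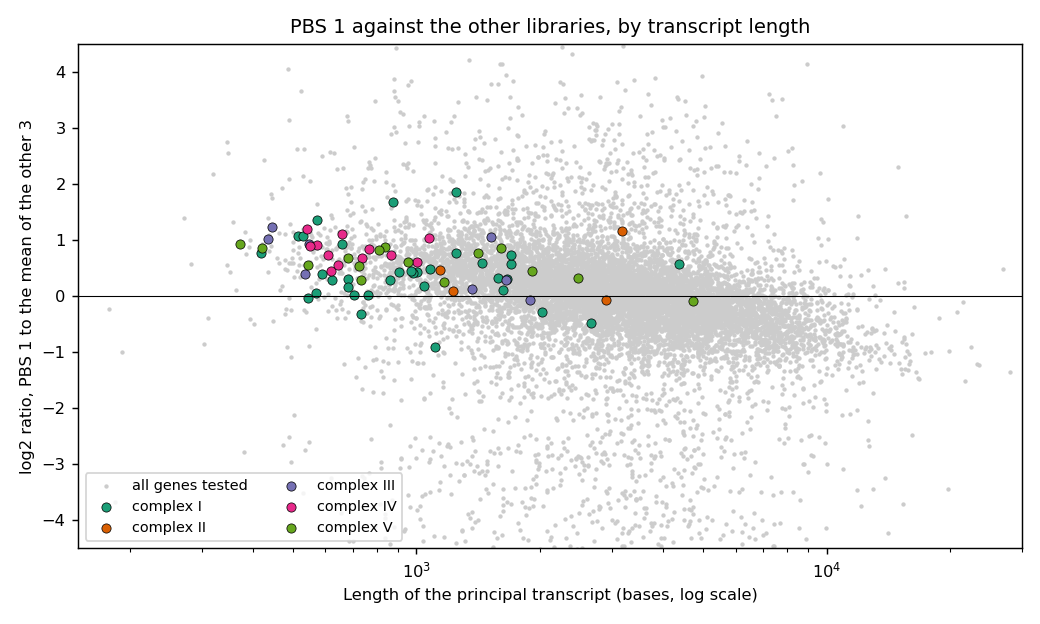
Level in PBS 1 over the mean level in the other 3 libraries, as a log2 ratio (vertical) against the length of the principal transcript in bases (horizontal, log scale), for all genes tested (grey) and for the subunit genes by complex (colours). The ratio is lower for longer transcripts, most members lie under 1500 bases and above 0, and 245 of the 11313 genes fall outside the axes.

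Other gene families were also high in PBS 1. Of the 76 tested genes of mitochondrial ribosomal proteins, PBS 1 was highest for 48 (63.2%), with a median log2 ratio of 0.51. Of the 78 tested genes of cytosolic ribosomal proteins it was highest for 76 (97.4%), with a median of 0.70. The median transcript lengths of these families were 1302 and 887 bases, and with the length trend taken out their median log2 ratios were 0.42 and 0.44. The 14 tested subunits and electron carriers whose names fall outside the rule, such as Cyc1, had longer transcripts, with a median of 2012 bases. PBS 1 was the highest library for 10 of these (71.4%), and their median log2 ratio was 0.46, or 0.51 with the length trend taken out.

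Cell type markers were read beside this result. The 6 Treg cell markers summed to 3160, 3875, 3801 and 4036 CPM in PBS 1, PBS 2, TSLP 1 and TSLP 2, with Ctla4 the most abundant at 14544, 12245, 14091 and 12870 reads. Foxp3, the defining factor of the lineage, had 2514, 5065, 4784 and 4824 reads in that order and was lowest in PBS 1, while Cd4 had 5804, 6291, 6205 and 6184. The 2 CD8 T cell markers summed to 13.4, 7.83, 8.84 and 11.97 CPM, led by Cd8b1. PBS 1 was thus lowest for the Treg cell list as a whole but not for Ctla4, and its CD8 markers were close to those of TSLP 2. The Treg cell markers had long transcripts, with a median of 3471 bases. Their median PBS 1 log2 ratio was −0.27, against 0.01 for all genes. With the length trend taken out it was −0.11, against 0.14 for all genes.

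Markers of other cell types were low in all 4 libraries. The 4 B cell markers summed to 0.618, 10.4, 5.02 and 9.35 CPM, led by Cd79b, with Cd79a at 0 in PBS 1. The 5 myeloid markers summed to 17.6, 11.9, 8.59 and 8.76 CPM, led by Cd68 with 174, 66, 59 and 16 reads, with Adgre1 at 0 in every library. Lyz2 of the same list went the other way, with 1, 43, 37 and 40 reads. The 2 NK cell markers summed to 0.706, 0, 0.425 and 2.43 CPM, the 3 erythroid markers to at most 0.681 CPM, and the platelet markers Pf4 and Ppbp were at 0. The part of these cell types in the level of the subunit genes in PBS 1 was not tested.

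Whether 3 h of TSLP altered the respiratory chain genes was asked by comparing both TSLP libraries with both PBS libraries, with limma on log2(normalized count + 1) over all genes tested. No member passed an adjusted p under 0.05, and neither did any of the 11392 genes (0.0%). At an unadjusted p under 0.05 there was 1 member, against 1.69% of all genes (192). On the recovered reads edgeR and DESeq2 likewise called 0 members after adjustment and 2 each before it, against 2.05% of all genes by either tool. The median log2 fold change of the members was −0.23, with 17 above 0 and 58 below, against 0.01 for all genes. Of the 75 members, 46 lay within 1 standard error of 0 and 2 over 2 standard errors from it, with a median standard error of 0.34.

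Much of this depended on PBS 1. Without it the median log2 fold change of the members was 0.07, with 46 above 0 and 29 below, and 29 of the 75 changed sign. Without PBS 2 it was −0.56, and 17 members (22.7%) had an unadjusted p under 0.05, against 16.3% of all genes. Leaving out TSLP 1 or TSLP 2 gave −0.15 and −0.29. With the trend over transcript length taken out, the median of the members was −0.13 and that of all genes −0.02. Both TSLP libraries lay below both PBS libraries for 10 members, while 14.4% of all genes tested did so, and above both for 4 members, against 14.5%. The groups overlapped for the other 61.

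By complex, the median log2 fold change was −0.19 for complex I, −0.22 for complex II, −0.29 for complex III, −0.32 for complex IV and −0.18 for complex V. Without PBS 1 the same medians were 0.07, −0.22, −0.02, 0.06 and 0.13. The median of complex II, of 4 genes, stayed while its single genes moved, as given below, and the other 4 medians moved to near or above 0. With all 4 libraries and the filter on low values, no member of complexes I, II, IV or V had an unadjusted p under 0.05 in limma.

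**Figure D4:**
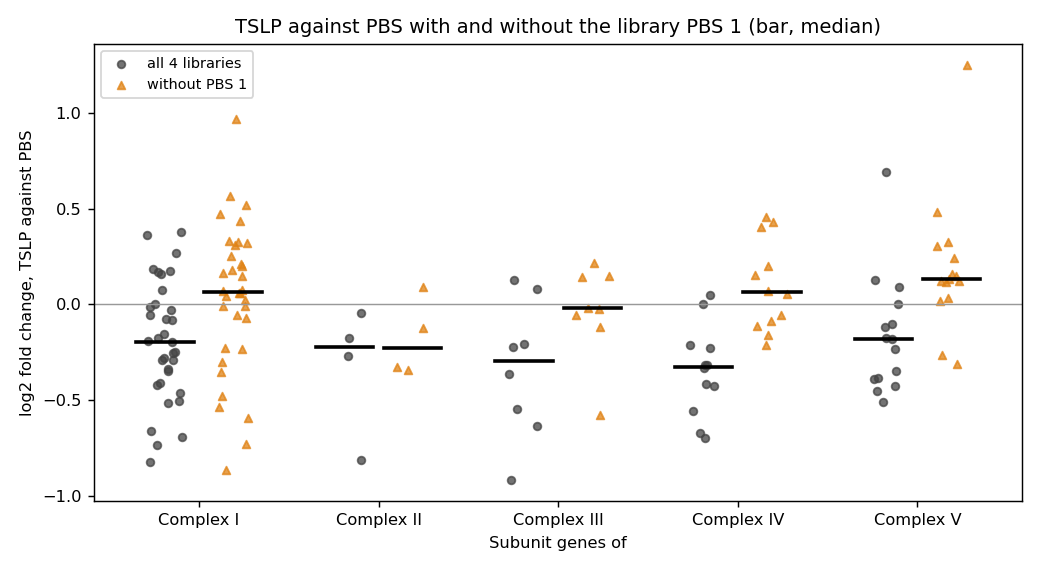
Log2 fold change of TSLP against PBS (vertical) for each tested subunit gene, by complex (horizontal), from all 4 libraries (grey circles) and without PBS 1 (orange triangles), with bars at the medians. The medians of complexes I, IV and V lie below 0 with all libraries and above 0 without PBS 1, while that of complex II stays at −0.22.

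The one member under an unadjusted p of 0.05 was Uqcrq (chr11:53427922-53430831, − strand), a small subunit at the ubiquinone side of complex III. Its normalized counts were 605, 378, 313 and 205 in PBS 1, PBS 2, TSLP 1 and TSLP 2. Both TSLP libraries were below both PBS libraries, at 259 ± 76.3 against 492 ± 160 (SD, n = 2 each). The log2 fold change was −0.92 (SE 0.36), with an unadjusted p of 0.0333 and an adjusted p of 0.9999 in limma. Without PBS 1 the log2 fold change was −0.58 and no longer had an unadjusted p under 0.05. None of the Uqcrq windows occurred in another gene's transcripts.

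In complex I the lowest log2 fold change was that of Ndufc1, at −0.82 (SE 0.80), with normalized counts of 151 and 38.02 with PBS and 52.8 and 34.5 with TSLP. The groups overlapped, and without PBS 1 the value was 0.16. The highest was that of Ndufb10, at 0.38 (SE 0.31), with 324 and 346 with PBS and 370 and 513 with TSLP. Here the groups did not overlap, with 335 ± 15.9 against 442 ± 101 (SD, n = 2 each), and the value without PBS 1 was 0.33.

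The complex II genes gave log2 fold changes of −0.04 (SE 0.22) for Sdha, −0.18 (SE 0.26) for Sdhb, −0.27 (SE 0.27) for Sdhd and −0.81 (SE 0.42) for Sdhc. Without PBS 1 the same values were −0.12, 0.09, −0.33 and −0.34. For Sdhc the groups overlapped, since TSLP 2 at 416 exceeded PBS 2 at 380. In complex III, Uqcrh had −0.36 (SE 0.32), turning to 0.15 without PBS 1, and Uqcrc2 was highest with 0.13 (SE 0.21), and 0.14 without PBS 1. Uqcrc2 had 1375 and 1349 normalized counts with PBS and 1454 and 1525 with TSLP, groups that did not overlap. Of its windows, 24.8% were shared with other genes.

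In complex IV the range ran from −0.70 (SE 0.39) for Cox7a2, with 676 and 343 with PBS and 250 and 352 with TSLP, to 0.05 (SE 0.29) for Cox6b1, with 1054 and 641 against 819 and 883. Both sets overlapped. Without PBS 1 the log2 fold change was −0.21 for Cox7a2 and 0.41 for Cox6b1. Cox4i1 had normalized counts of 4775 and 2495 with PBS and 2754 and 2789 with TSLP, and its log2 fold change of −0.32 (SE 0.30) was 0.15 without PBS 1. The 2 TSLP libraries differed by far less for this gene than the 2 PBS libraries did.

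Atp5b, in complex V, had the same form: 12180 and 8386 normalized counts with PBS, 9311 and 9298 with TSLP, and a log2 fold change of −0.12 (SE 0.26) that was 0.15 without PBS 1. The lowest in complex V was Atp5j2, the membrane subunit f, at −0.51 (SE 0.36), with 384 and 291 with PBS and 196 and 281 with TSLP. Its groups did not overlap, and the value was −0.31 without PBS 1. The highest was Atp5g2, at 0.69 (SE 0.59) and 1.25 without PBS 1, with 101 and 46.0 against 119 and 103 and the shared windows described above. Of the 10 members with both TSLP libraries below both PBS libraries, PBS 1 was the highest library for 7. Only a PBS library could be highest in this selection, and PBS 1 was so for 70.7% of all members tested. The 7 thus say nothing particular about these members.

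The genes that build the complexes were read in the same way, from lists drawn up by hand. Of 44 tested assembly factors (50 listed), 20 had a log2 fold change above 0 and 24 below, with a median of −0.04 and of −0.05 without PBS 1. PBS 1 was the highest library for 36.4% of them, near the 32.4% of all genes, with a median log2 ratio of 0.23. The median transcripts of these lists, 1387 to 2490 bases by complex, were shorter than the 2965 of all genes. Of all genes from 750 to 1500 bases PBS 1 was highest for 55.6%, and from 1500 to 3000 bases for 40.4%. The median log2 fold changes were −0.39 for the 13 complex I factors, −0.16 for the 3 of complex II, 0.01 for the 5 of complex III, 0.02 for the 20 of complex IV and 0.02 for the 3 of complex V. Without PBS 1 the same medians were −0.77, −0.05, 0.09, 0.10 and −0.77. Differences between these lists, some of 3 genes, were not tested. One factor of the 44 had an unadjusted p under 0.05 in limma, near the 1.69% of all genes, and none an adjusted one.

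That factor was Acad9, an acyl-CoA dehydrogenase relative that helps assemble complex I. It had 170, 219, 354 and 344 reads in PBS 1, PBS 2, TSLP 1 and TSLP 2. Both TSLP libraries were above both PBS libraries, with a log2 fold change of 0.86 (0.66 without PBS 1) and, in limma, an unadjusted p of 0.0344 and an adjusted p of 0.9999. Foxred1, another complex I factor, had 198, 351, 223 and 166 reads, and its groups overlapped, with a log2 fold change of −0.44, or −0.88 without PBS 1.

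Of the factors with the highest levels in the other lists, Sdhaf2 and Sdhaf1 of complex II had log2 fold changes of −0.16 and −0.65, or −0.05 and −0.34 without PBS 1. Ttc19 and Uqcc3 of complex III had 0.15 and 0.01, or 0.25 and 0.40 without PBS 1. For complex IV, Coa5 had 0.05 (0.01 without PBS 1) and Lrpprc, a stabilizer of mitochondrial mRNAs, 0.07 (0.15). For complex V, Tmem70 had 0.43 (0.83 without PBS 1) and Atpaf2, a chaperone of the α subunit, −0.96 (−0.77). None of these had an unadjusted p under 0.05. Among 14 tested subunits and carriers whose names fall outside the rule, the median log2 fold change was −0.11, with 5 above 0 and 9 below, and without PBS 1 it was 0.25, with 9 above 0 and 5 below. Here Cyc1, the cytochrome c1 of complex III, had 1046, 704, 899 and 753 reads and Etfdh, which feeds electrons to ubiquinone, 467, 472, 656 and 543. Their log2 fold changes were −0.05 and 0.36, or 0.21 and 0.33 without PBS 1.

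The 12 tested regulators of mitochondrial biogenesis, 8 with a log2 fold change above 0 and 4 below, had a median of 0.10 and a median PBS 1 log2 ratio of −0.01. Without PBS 1 the median log2 fold change was −0.12, with 5 above 0 and 7 below. Yy1 had 2494, 2306, 2436 and 2344 reads in PBS 1, PBS 2, TSLP 1 and TSLP 2, and Gabpb1 2137, 2053, 2029 and 2324. The 4 libraries were thus close for both. Gabpa and Nrf1 were lowest in PBS 1, with 561, 900, 986 and 991 reads and 657, 843, 902 and 878 reads. Their PBS 1 log2 ratios were −0.81 and −0.45. Pprc1 and Polg were also lowest there, with ratios of −0.60 and −0.52. Tfam and Tfb1m were highest in PBS 1, with ratios of 0.26 and 1.24. They had 614, 566, 581 and 382 reads and 55, 43, 34 and 7 reads, with TSLP 2 the lowest for both. Of the 12 ratios, 6 lay above 0 and 6 below. Ppargc1a, the coactivator PGC-1α, had no read in any library. The median transcript length of these regulators was 3706 bases, longer than that of the subunits. The log2 fold changes of Yy1 and Gabpb1 were 0.01 and 0.06, or 0.04 and 0.07 without PBS 1.

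Promoters of subunit genes are known to hold sites for NRF1, for ETS factors such as GABP and for YY1, and the promoters of the members were searched for these motifs on both strands. RefSeq (GRCm38.p6) gave 75 windows of 300 bases, from 250 before to 50 after a start site, for 69 of the 83 members. The NRF1 string GCGCATGC was in 13.3% of them against 2.71% of all 32851 windows, the ETS string CCGGAAG in 21.3% against 8.86%, and the YY1 string AAGATGGC in 16% against 2.75%. At least 1 of these 3 strings was in 42.7% of the member windows and in 13.3% of all. The TATA string TATAAA was in 10.7% against 13.6%. The set of all windows was not restricted to genes expressed in these cells or matched in base composition. These are matches of letters, not sites shown to be bound.

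For each of the 3 motifs, 1 stretch is shown, that of the member with the highest mean normalized count among those whose motif lies wholly before the start site, written 5′ to 3′ on the strand of the gene with the motif in capitals. Start sites here are those of RefSeq, and the stretches of Sdhb and Atp5j lie inside the longer GENCODE spans of these genes. The 3 stretches are from Sdhb (chr4:140961206-140961235, + strand), Uqcrh (chr4:116075071-116075091, − strand) and Atp5j (chr16:84835046-84835075, − strand), and in Sdhb and Uqcrh the motif lies on the opposite strand, so that its complement is read here.
Sdhb: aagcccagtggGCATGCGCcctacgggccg
Uqcrh: agtatgccgcaCTTCCGGcca
Atp5j: aaagtgtaggaAAGATGGCggagtcttagc

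The motif ended 46 bases before the start site in Sdhb, 3 in Uqcrh and 80 in Atp5j, which encodes the coupling factor F6 of complex V. The median PBS 1 log2 ratio was 0.43 for the 10 tested members with the NRF1 string and 0.57 for the 54 without it, 0.75 for the 16 with the ETS string and 0.51 for the 48 without, and 0.60 for the 11 with the YY1 string and 0.53 for the 53 without. The differences between these medians were not tested. All 3 genes shown were highest in PBS 1, Atp5j with normalized counts of 724, 403, 398 and 428 in PBS 1, PBS 2, TSLP 1 and TSLP 2.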

How the data were processed

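Members, lists and tests were chosen with earlier results of these data known. Per the study's methods, libraries were made with a directional kit and 50-base single-end reads were mapped to mm10 with HISAT2, counted with HTSeq and analysed with DESeq2. The gene annotation and the strand setting of the counting are not given in the sources used here. The deposited values are a signal, made by the authors by scaling each library's read counts with its size factor. All values came out as whole reads within a tolerance of 0.01, a check that says little for PBS 2, whose factor is close to 1. Two-sided tests used limma 3.58.1 (R 4.3.3) on log2(normalized count + 1) with an intensity trend and Benjamini-Hochberg adjustment over 11392 genes. On recovered reads, edgeR 4.0.16 with TMM and DESeq2 1.42.0 were alternatives. Others were pseudocounts of 0.5 and 5, no filter, a mean normalized count of at least 100, TMM factors, a replicate block, removal of a loess trend (span 0.5) over exon or transcript length, and leaving out each library. Transcript lengths and positions came from the GENCODE annotation of GRCm38. The named genes were, by complex, those with most reads and with the highest and lowest log2 fold change and PBS 1 ratio, members with an unadjusted p under 0.05, the Sdh genes and the related sets, and of the hand-made lists those with an unadjusted p under 0.05 and the 2 with most reads. One gene that this rule names is not reported here. Others, such as Ndufa6, Ndufb2, Ndufs1, Ndufs5, Atp5a1, Atp5e, Atp5j, Atp5l, Atp5o, Lyz2, Gabpa, Nrf1, Pprc1, Polg and Ppargc1a, were named after their values were seen. This was also so for Tfam and Tfb1m. The fit was tested on simulated data.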

Additional observations from a re-analysis of the deposited data

How the results depend on the processing

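With TSLP against PBS, the median log2 fold change of the members was under 0 in 14 of 15 alternatives. The exception was the one without PBS 1. This median ran from −0.56 to 0.069 as each library was left out. With the transcript length trend removed it was −0.13, and by complex −0.11, −0.13, −0.18, −0.17 and −0.077 for complexes I to V. No alternative gave a member with an adjusted p under 0.05. At an unadjusted p under 0.05, edgeR gave Uqcrq and Ndufv3, and DESeq2 and limma without a filter gave Uqcrq and Cox6b2. Over all genes that count was 192, against 234 by edgeR, 286 by DESeq2, 358 without a filter, 1858 without PBS 2 and 79 without TSLP 2. Across genes, the difference between PBS 1 and PBS 2 did not correlate with that between TSLP 1 and TSLP 2 (correlation 0.00072). This cannot show whether samples of the same number were paired, since PBS 1 stood apart from the rest. With a replicate block the median stayed at −0.23 and 258 genes had an unadjusted p under 0.05, or 322 with the block and the length trend removed. The PBS 1 median log2 ratio was above 0 in 10 of 10 alternatives, running from 0.54 to 0.63 with 1 of the other libraries left out and moving to 0.32 with the transcript length trend removed. Removal of the length trend turned the log2 fold change of Ndufa12 to 0.071 with exon lengths, with or without the block, and to 0.078 with transcript lengths. Cox7b, at 0.0016, was −0.00041 with TMM factors, −0.049 by edgeR and −0.047 by DESeq2. The cause was not tested.

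Of the named genes, 25 tested subunit genes were followed as each library was left out in turn. Those of the hand-made lists were not followed in this way. The log2 fold change of 15 of the subunit genes turned sign without 1 library or without either of 2, with the following ranges. They were −0.39 to 0.15 for Atp5b, −0.25 to 0.50 for Atp5g1, −0.49 to 0.13 for Atp5g3, −0.88 to 0.12 for Atp5k, −0.78 to 0.15 for Cox4i1 and −0.90 to 0.069 for Cox6a1. They were −0.31 to 0.41 for Cox6b1, −0.89 to 0.43 for Cox7a2l, −0.46 to 0.46 for Cox7b, −0.73 to 0.67 for Ndufa12 and −1.80 to 0.16 for Ndufc1. The rest were −0.15 to 0.069 for Sdha, −0.44 to 0.089 for Sdhb, −1.40 to 0.13 for Uqcr11 and −0.88 to 0.15 for Uqcrh. Uqcrq ran from −1.25 to −0.58 and had an unadjusted p under 0.05 without PBS 2 but not without any of the other 3. Where a group was left with 1 library, it was assumed to vary like the other group. With 2 libraries a group and a median standard error of 0.34, small changes of subunit genes could not be shown at this depth and number of samples.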
